A study of Mus musculus with 8 samples.

Results

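AP-1 and EGR factors are transcription factors encoded by immediate early genes, which cells switch on within minutes of a stimulus without making new protein. The 10 genes described here were Fos, Fosb and Fosl2 of the Fos family, Jun, Junb and Jund of the Jun family, Atf3 of the ATF family, and Egr1, Egr2 and Egr3 of the EGR family. They were taken as a family, by gene symbol, with earlier results of these data known, and all 10 were found among the 53735 genes of the count tables. RNA-seq was performed on bone marrow derived macrophages (BMDMs), which are bone marrow cells grown into macrophages in culture for 7 days. The donors were male mice, 6 months old, that received angiotensin II (Ang II) for 7 days. WT was Mkl1+/+, Apoe-/- and KO was Mkl1-/-, Apoe-/-, so both genotypes lacked ApoE and both received Ang II, and no library came from a mouse without Ang II. The knockout was global and not restricted to macrophages. Experiment 1 held WT libraries 1 and 2 and KO libraries 5 and 6, and experiment 2 held WT libraries 3 and 4 and KO libraries 7 and 8. Nothing in the labels ties each library to 1 mouse, so the p-values measure the spread between libraries, which may be partly technical.

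AP-1 is a dimer joined through leucine zippers, in which a Jun protein pairs with a Fos or ATF protein or with another Jun protein. Fos proteins need a Jun partner to bind DNA. EGR proteins bind GC-rich DNA as monomers through zinc fingers. MKL1 is a coactivator of serum response factor (SRF), which binds DNA at a sequence known as the CArG box, and Fos and Egr1 are textbook SRF targets. At those genes SRF also works with the ELK factors, which are activated by MAP kinases, and AP-1 and EGR genes are best known in macrophages for their response to growth factors and to microbial products.

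Each library held between 33977799 and 41584540 counts. Mkl1, the targeted gene, was measured in CPM, the counts of a gene scaled by the total of its library and a TMM normalization factor. These factors lay between 0.93 and 1.055. WT libraries 1 to 4 had 25.6, 27.1, 26.8 and 29.6 CPM of Mkl1, against 19.5, 20.9, 14.6 and 10.4 CPM in KO libraries 5 to 8. It was lower in every KO library, but reads on it remained. The 10 macrophage markers summed to between 18700 and 38000 CPM, with F13a1 at 0 in WT library 4. In experiment 1 all 10 passed the test, 3 lower and 7 higher in KO, and in experiment 2 1 was lower and 2 were higher. The shares over all genes tested were 28.1% lower and 27.0% higher in experiment 1, and 8.29% and 7.52% in experiment 2. Adgre1, which encodes the macrophage protein F4/80, had a log2 fold change of -2.11 (adjusted p = 6.39e-06 in edgeR) in experiment 1 and 0.91 (adjusted p = 0.0258) in experiment 2. Itgam, which encodes CD11b, had -1.03 (adjusted p = 6.39e-06) and 1.34 (adjusted p = 0.0371), and Csf1r, the receptor gene for CSF1, had 0.82 (adjusted p = 0.000966) and -1.28 (adjusted p = 0.0309). The 9 fibroblast markers summed to 214 and 283 CPM in KO libraries 5 and 6 of experiment 1 and to between 2.25 and 13.8 CPM in the other 6 libraries. None of these 9 genes was at 0 in all libraries, and all 7 that could be tested were higher in KO in experiment 1, as were 27.0% of all genes. The 7 dendritic cell markers summed to 32.5 and 47.8 CPM in WT libraries 3 and 4, to 20 and 30 CPM in KO libraries 5 and 6, and to between 1.7 and 4.06 CPM in the other 4. Nearly all of this was Itgax, which macrophages also express, with 30.9 and 46.7 CPM in WT libraries 3 and 4 and 19.2 and 29.3 CPM in KO libraries 5 and 6. Neutrophil markers summed to at most 1.5 CPM, B and T cell markers to at most 0.115 CPM and mast cell markers to at most 8.19 CPM. KO libraries 5 and 6 entered every KO against WT value of experiment 1 below and none of experiment 2, and the part of fibroblast RNA, or of the changes in Itgax and the macrophage markers, in the values below was not tested. In bulk RNA, fewer cells of a type and less RNA per cell cannot be told apart.

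The regions upstream of the transcription starts are shown because MKL1 acts through SRF and because several of the factors moved together. RefSeq windows on GRCm38.p6, from 250 bases before to 50 bases after a start, were present for 8 of the 10 genes (all but Egr1 and Egr3), with 5 windows for Egr2 and 1 for each of the others. The CArG box was searched on both strands and was found in 1.63% of all 32851 windows. Among the windows of these factors it was found only at Egr2, in 4 of its 5 windows, at 2 places. In the following sequences, each 5′ to 3′ on the strand of its gene, capitals mark the CArG box, first at chr10:67537456-67537555 and then at chr10:67537759-67537858, both on the plus strand.
Egr2, start at 67537566: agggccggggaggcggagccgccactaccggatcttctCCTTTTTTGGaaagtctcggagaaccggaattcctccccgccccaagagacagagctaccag
Egr2, start at 67537869: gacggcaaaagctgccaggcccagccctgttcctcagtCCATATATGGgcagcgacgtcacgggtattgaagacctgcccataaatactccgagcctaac
In both, the first base of the box lay 72 bases before the start. The match is a description and not a measured site, and its absence elsewhere says only that these letters were not in these short windows.

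Other motifs differed between the factors. TGACG, one arm of the element bound by CREB and ATF proteins, was found in 20.8% of all windows and in those of Fos, Fosb, Junb, Atf3 and Egr2. Fos, at chr12:85473780-85473879 on the plus strand, and Junb, at chr8:84978799-84978898 on the minus strand, are printed because they were the 2 factors whose KO libraries all lay below all WT libraries. Jun, at chr4:95052233-95052332 on the minus strand, is printed for TGACATCA, a variant AP-1 motif, which was present in 3.62% of windows. Capitals mark TGACG and TATAAA in Fos, TGACATCA in Jun and TGACG in Junb.
Fos: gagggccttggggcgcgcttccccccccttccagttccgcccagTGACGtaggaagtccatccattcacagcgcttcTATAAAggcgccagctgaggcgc
Jun: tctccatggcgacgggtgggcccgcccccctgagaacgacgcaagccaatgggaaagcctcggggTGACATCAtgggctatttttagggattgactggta
Junb: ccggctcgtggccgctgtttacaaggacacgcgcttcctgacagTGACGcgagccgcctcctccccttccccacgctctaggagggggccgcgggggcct
The first base of TGACG lay 66 bases before the start in Fos, which held another copy at 129 bases, and 106 bases before it in Junb. TGACATCA began 45 bases before the start of Jun. GCGNGGGCG, the motif bound by EGR proteins, was found in Fosl2 and Fosb and in 5.55% of all windows. Neither the AP-1 motif TGANTCA (7.81% of windows) nor TGACGTCA (1.79%), which contains TGACG, was found in any of the windows of the 8 genes. TATAAA was in 13.6% of windows, and besides Fos it was found at the RefSeq start itself of Junb. The Junb distances here count from that start, at 84978748. In GENCODE M21 this minus-strand gene begins further downstream, at 84978718, so its distances depend on the start used. No motif of the search other than TATAAA overlapped a start, and Jund held none of them.

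**Figure D1:**
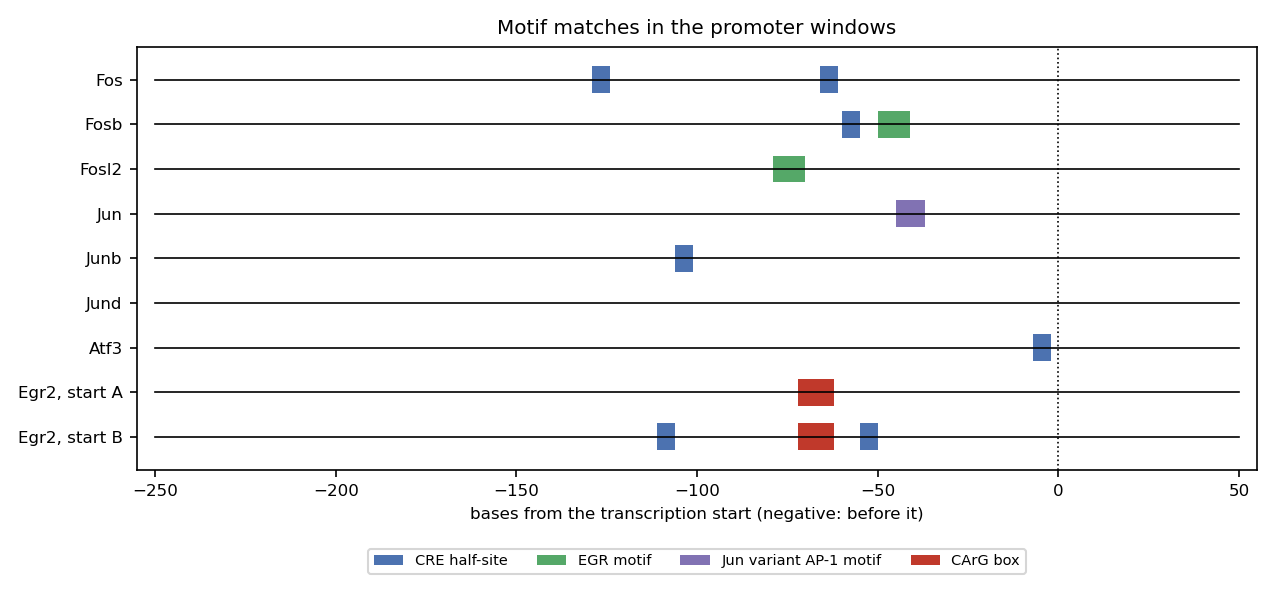
Positions of the motif matches in the RefSeq promoter windows of 8 genes, in bases from the transcription start, with 1 line per window and 2 of the 5 Egr2 windows drawn (start A at 67537566, start B at 67537869); TATAAA is not drawn. The CArG box (red) appears only on the Egr2 lines, 72 bases before the start, while TGACG (blue, CRE half-site) appears at Fos, Fosb, Junb, Atf3 and Egr2.

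Levels were compared between genes per kb of exon. Atf3, a stress-induced factor of the ATF family, had the highest mean over the 8 libraries, with 176 CPM per kb. Junb, Jund, Jun and Fos followed with 58.5, 42.1, 40.4 and 27.7 CPM per kb. Fosl2 and Egr2 were at 3.90 and 3.19 CPM per kb, and Egr1, Egr3 and Fosb were near the limit of detection at 0.276, 0.0735 and 0.0580 CPM per kb. The order was not the same in every library. Jund and Jun are neighbours whose ranges over libraries overlapped, from 31.1 to 55.4 and from 24.8 to 55.7 CPM per kb, and so are Fosl2 (1.79 to 5.45) and Egr2 (1.08 to 8.61). Junb (34.5 to 104) also overlapped Jund and Jun. It was below both in KO library 7 (45.2 against 54.0 for each) and KO library 8 (36.5 against 43.5 and 39.6). Fos (10.7 to 37.9) was above both in WT libraries 3 and 4. Egr3 had between 4 and 27 counts per library and did not pass the filter by genotype, so the following counts cover 9 of the 10 factors.

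KO was compared with WT within each experiment, to determine whether the loss of Mkl1 was accompanied by a change of these factors in each batch. In experiment 1, 7 of the 9 factors tested decreased in KO and 1 increased, at an adjusted p under 0.05 (quasi-likelihood test of edgeR, adjusted by Benjamini-Hochberg over 14418 genes). Of all genes tested, 28.1% were lower and 27.0% were higher. In experiment 2, 1 of the 9 factors was lower and 4 were higher, where 8.29% of all genes were lower and 7.52% higher. The median log2 fold change of the 9 factors was -0.68 in experiment 1 and 0.60 in experiment 2, against 0.01 in both for all genes tested. The only factor lower in both experiments was Junb, as were 2.25% of all genes, and 4 factors (Fosl2, Jun, Jund and Atf3) were lower in experiment 1 and higher in experiment 2, as were 3.11% of all genes and, among the macrophage markers, Adgre1 and Itgam. Leaving out any 1 library of experiment 2 ended the calls of Jun, Jund and Atf3 there and left between 1 and 3 factors called, and all calls of experiment 2 fell from 2279 to between 232 (without KO library 8) and 1388 genes. With upper-quartile scaling the share of higher genes among all calls of experiment 1 was 59.8% rather than 49.0%, and the median of all genes was 0.11, but 8 of the 9 factors kept their direction and Fosb, which did not pass the test, moved from -0.01 to 0.08.

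**Figure D2:**
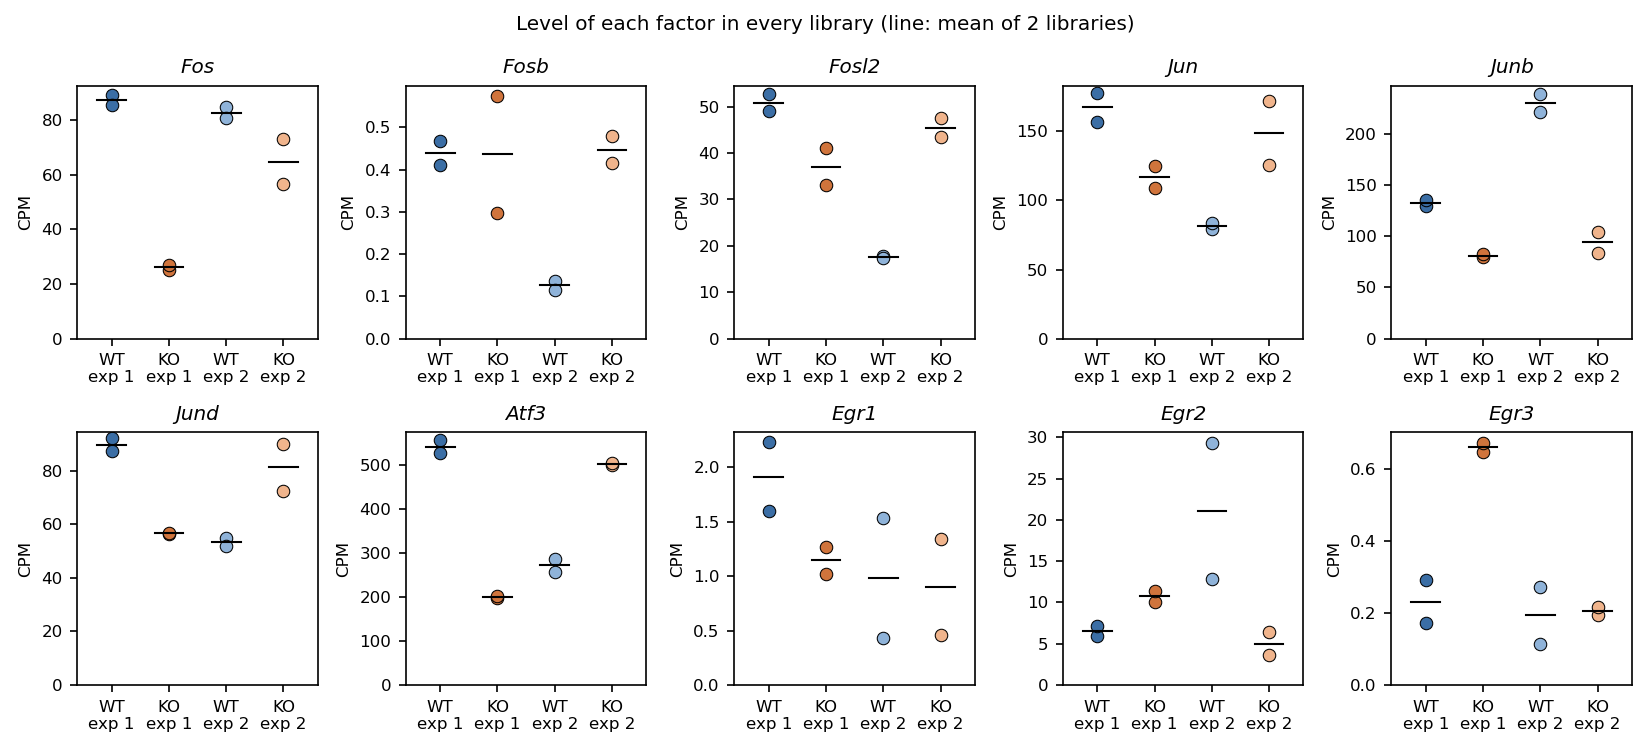
CPM of each of the 10 factors in the 8 libraries (1 point each), by genotype and experiment, on linear axes that start at 0; the line is the mean of the 2 libraries. Junb is the factor whose KO libraries lie well below the WT libraries of both experiments, while Fosl2, Jun, Jund and Atf3 lie lower in KO in experiment 1 and higher in KO in experiment 2.

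Junb, the Jun protein best known for restraining the activity of Jun and for its role in macrophage activation, lies on chromosome 8 (GRCm38, 84974484 to 84978718, minus strand). It had 130 and 135 CPM in WT and 79.4 and 82.6 CPM in KO in experiment 1, and 222 and 239 CPM in WT and 104 and 84.1 CPM in KO in experiment 2. Every KO library was below every WT library. Its log2 fold change was -0.72 (standard error 0.06, adjusted p = 2.72e-05) in experiment 1 and -1.29 (standard error 0.15, adjusted p = 0.0112) in experiment 2. Without KO library 8 the adjusted p of experiment 2 was 0.0606. The 2 effects differed by -0.58 on the log2 scale (adjusted p = 0.0203 in the interaction test of edgeR), so the decrease was larger in experiment 2, although this difference was lost without WT library 1 or 2 or KO library 5 or 6, with adjusted p between 0.0622 and 0.0827 in edgeR. The order of the groups was WT of experiment 2, WT of experiment 1, KO of experiment 2 and KO of experiment 1, and the last 2 did not differ past the threshold (adjusted p = 0.168 in edgeR).

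Jun, the founding member of the family and a main transactivating subunit of AP-1, lies on chromosome 4 (95049034 to 95052222, minus strand). In experiment 1 it had 157 and 178 CPM in WT and 109 and 125 CPM in KO. In experiment 2 it had 79.0 and 83.8 CPM in WT and 172 and 126 CPM in KO. KO lay below WT in experiment 1 and above WT in experiment 2, with no overlap in either. KO differed from WT by -0.52 on the log2 scale in experiment 1 (standard error 0.09, adjusted p = 0.00247 in edgeR) and by 0.87 in experiment 2 (standard error 0.17, adjusted p = 0.0317 in edgeR).

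Jund, the Jun protein that is expressed most evenly across resting tissues, lies on chromosome 8 (70698949 to 70700616, plus strand). It had 87.3 and 92.3 CPM in WT and 56.5 and 56.7 CPM in KO of experiment 1, and 55.1 and 51.9 CPM in WT and 90.1 and 72.5 CPM in KO of experiment 2. As with Jun, the WT libraries were the high ones in experiment 1 and the low ones in experiment 2. Jund changed by -0.68 on the log2 scale (standard error 0.06, adjusted p = 4.60e-05 in edgeR) and then 0.60 (standard error 0.14, adjusted p = 0.0447 in edgeR).

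Atf3, a stress-induced bZIP factor that represses inflammatory genes in macrophages, lies on chromosome 1 (191170296 to 191218039, minus strand). It had 555 and 527 CPM in WT and 197 and 203 CPM in KO of experiment 1. In experiment 2 the WT libraries had 286 and 257 CPM and the KO libraries had 500.0 and 503 CPM. The KO libraries of experiment 2 thus lay near the WT libraries of experiment 1. In KO Atf3 changed by -1.45 on the log2 scale (standard error 0.06, adjusted p = 2.04e-06 in edgeR) in experiment 1 and 0.89 (standard error 0.13, adjusted p = 0.0179 in edgeR) in experiment 2. In the fits of experiment 2 without 1 library, Jun, Jund and Atf3 kept their direction, with adjusted p between 0.0517 and 0.141 in edgeR.

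Fos, the inducible partner of Jun proteins, lies on chromosome 12 (85473890 to 85477273, plus strand). It had 89.2 and 85.6 CPM in WT and 25.1 and 27.0 CPM in KO in experiment 1, and 84.6 and 80.6 CPM in WT and 73.1 and 56.4 CPM in KO in experiment 2. All 4 KO libraries lay below all 4 WT libraries, but the gap was wide only in experiment 1. The log2 fold change was -1.76 (standard error 0.07, adjusted p = 1.33e-06 in edgeR) in experiment 1, where it was the largest decrease among the factors, and -0.35 (standard error 0.15, adjusted p = 0.173 in edgeR) in experiment 2. The WT libraries of the experiments differed by -0.08 (adjusted p = 0.644 in edgeR), while Fos was higher in KO of experiment 2 than in KO of experiment 1 by 1.32 (adjusted p = 0.000884 in edgeR).

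Fosl2 encodes Fra-2, a Fos protein without the strong transactivation domain of Fos, and lies on chromosome 5 (32135801 to 32157842, plus strand). It had 52.7 and 49.1 CPM in WT and 33.1 and 41.1 CPM in KO of experiment 1, and 17.9 and 17.3 CPM in WT and 47.6 and 43.4 CPM in KO of experiment 2. The WT libraries of experiment 2 were the lowest of all and the other 3 groups lay closer together. On the log2 scale KO differed from WT by -0.47 (standard error 0.11, adjusted p = 0.00982 in edgeR) and 1.37 (standard error 0.11, adjusted p = 0.00631 in edgeR). The increase in experiment 2 held in each fit without 1 library, and the decrease in experiment 1 was lost without WT library 1 (adjusted p = 0.0579 in edgeR). Fosb, on chromosome 7 (19302696 to 19310051, minus strand), encodes the Fos protein best known from long-lasting responses in neurons. It had 19 and 14 counts in WT and 11 and 23 in KO of experiment 1, and 5 and 4 counts in WT and 17 and 20 in KO of experiment 2. Its log2 fold changes of -0.01 (adjusted p = 0.980) and 1.8 (adjusted p = 0.0566) did not pass the test in edgeR, although the second passed in the edgeR fit of all 4 groups (adjusted p = 0.0235).

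Egr2, a zinc finger factor with a role in macrophage differentiation, lies on chromosome 10 (67535475 to 67542188, plus strand). It had 5.93 and 7.19 CPM in WT and 10.1 and 11.4 CPM in KO in experiment 1, where KO was higher. In experiment 2 the order was the other way, with 12.8 and 29.3 CPM in WT and 6.37 and 3.67 CPM in KO. The log2 fold change was 0.71 (standard error 0.14, adjusted p = 0.00318 in edgeR) and -2.07 (standard error 0.49, adjusted p = 0.0537 in edgeR), and the 2 WT libraries of experiment 2 lay far apart. The second value passed the threshold with DESeq2 (adjusted p = 5.54e-05) and with 1 edgeR fit of all 4 groups (adjusted p = 0.00747), and the first lost it in that fit (adjusted p = 0.183). Without WT library 3 the value of experiment 2 was -2.55 and passed (adjusted p = 0.0365 in edgeR), and without WT library 4 it was -1.35. The direction of Egr2 was thus opposite to that of Fosl2, Jun, Jund and Atf3 in both experiments, although its value in experiment 2 did not pass the test in edgeR. The CArG boxes shown above belong to this gene.

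Egr1, the best known SRF target of the family, was low in these cells. It had 65 and 76 counts in WT and 47 and 41 in KO of experiment 1, and 56 and 15 counts in WT and 55 and 19 in KO of experiment 2. The libraries of experiment 2 differed more within a genotype than between the genotypes. Egr1 changed by -0.74 on the log2 scale (standard error 0.26, adjusted p = 0.0424 in edgeR) in experiment 1, a call that was lost with DESeq2 (adjusted p = 0.151) and limma-voom (adjusted p = 0.0587), and by -0.14 (standard error 0.78, adjusted p = 0.921 in edgeR) in experiment 2. The call of experiment 1 was also lost in the edgeR fit of all 4 groups (adjusted p = 0.365), with upper-quartile scaling (adjusted p = 0.0707 in edgeR) and without WT library 2 or KO library 5 or 6 (between 0.0591 and 0.219). Egr3, a factor induced by NFAT in lymphocytes, had 7 and 10 counts in WT and 24 and 27 in KO of experiment 1, and 10 and 4 counts in WT and 8 and 9 in KO of experiment 2. The 2 highest libraries were KO libraries 5 and 6. Egr3 did not pass the filter on low counts used here, and it passed a filter by the 4 groups with the help of KO libraries 5 and 6, where it was high. With that filter its value in experiment 1 was 1.49 on the log2 scale. No p is given for it, because the libraries that let Egr3 pass were also those tested. With no filter beyond 1 count in total it had 1.47 (adjusted p = 0.00747 in edgeR), which rests on between 7 and 27 counts per library. In experiment 2 it had 0.07 (adjusted p = 0.953 in edgeR) with the filter by the 4 groups.

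**Figure D3:**
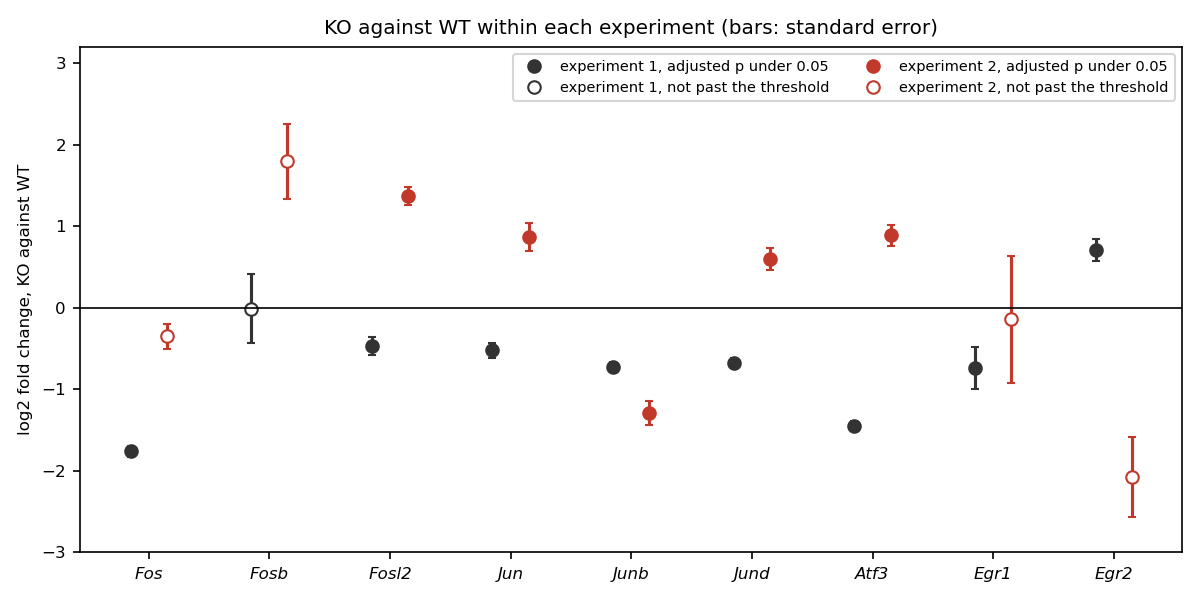
Log2 fold change of KO against WT for the 9 factors tested, in experiment 1 (black) and experiment 2 (red), with bars of 1 standard error and filled points at an adjusted p under 0.05 (edgeR). Junb is the factor with filled points below 0 in both experiments, and Fosl2, Jun, Jund and Atf3 have filled points on opposite sides of 0.

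In the interaction test of edgeR, 8 of the 9 factors had a KO effect that was unequal in the 2 experiments, as did 41.6% of all genes. The difference, experiment 2 less experiment 1, had its highest value among the 9 factors for Atf3, at 2.32 (adjusted p = 9.17e-05), and its lowest for Egr2, at -2.78 (adjusted p = 0.00722). The exception was Egr1, with 0.60 (adjusted p = 0.618). The call of Fosb (1.8, adjusted p = 0.0492) was lost with DESeq2 (adjusted p = 0.201), upper-quartile scaling (0.0516), no filter (0.0669), the filter by the 4 groups (0.0547) and without any 1 library other than KO library 6 (between 0.061 and 0.124). It was kept with limma-voom (adjusted p = 0.0475). In a fit of both experiments with the experiment as a term, Junb was the only factor called, with a value of -1.0 on the log2 scale (standard error 0.14, adjusted p = 0.0116), where 7.12% of all genes were called. Fos had -1.05 (standard error 0.29, adjusted p = 0.0763), and it passed with DESeq2 (adjusted p = 0.00477). Upper-quartile scaling moved the share of higher genes among the calls of this fit from 52.2% to 67.3%. All KO libraries lay below all WT libraries for Junb and Fos, as they did for 6.25% of all genes. The two-sided exact permutation test gave p = 0.0286 for each over 70 arrangements, the smallest that these allow, and p = 0.0556, also the smallest, over the 36 arrangements within experiments. For the other 7 factors the exact permutation p over 70 arrangements was between 0.200 and 0.971.

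The starting levels in WT were also compared, since each experiment has its own WT libraries. WT of experiment 2 differed from WT of experiment 1 for 7 of the 9 factors (edgeR), against 31.1% of all genes. Fosl2, Jun, Jund, Atf3 and Fosb were lower in WT of experiment 2, by log2 values of -1.53, -1.04, -0.75, -1.0 and -1.78. Junb and Egr2 were higher, by 0.80 and 1.68. The call of Fosb was lost without any 1 of the 4 WT libraries (adjusted p between 0.0876 and 0.114 in edgeR) and with DESeq2 (adjusted p = 0.0998), which left 6 factors. That of Egr2 was lost without WT library 1, 2 or 4 or KO library 5 (between 0.0502 and 0.113 in edgeR), and its value was 0.96 without WT library 4 and 2.14 without WT library 3. In KO, 3 of the 9 factors differed between the experiments, against 32.8% of all genes. These were Fos (1.32), Atf3 (1.32) and Jund (0.52), all higher in experiment 2, and the call of Jund was lost without KO library 5 or 6 (adjusted p = 0.0728 and 0.0666 in edgeR). With upper-quartile scaling 41.4% rather than 53.4% of all calls between the KO groups were higher, and the 3 factors kept their direction. The experiments are batches, so experiment and batch cannot be told apart, and these contrasts use the same libraries as the genotype comparisons.

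The make-up of each family was calculated per kb within a library, so the shares do not depend on the scaling between libraries. The sums cover only the members described here. Fosl1, another Fos family gene, was left out of the Fos family sum and had between 0.464 and 1.87 CPM over the libraries. Junb held 62.5% and 64.4% of the summed Jun family level in WT libraries 3 and 4 and between 29.5% and 35.8% in the other 6 libraries. The ratio of Junb to Jun was 3.89 and 3.96 in those WT libraries and between 0.836 and 1.15 elsewhere. The Jun family was thus made of nearly equal parts in 6 libraries and was mostly Junb in WT of experiment 2. The summed Jun family level was 103 and 109 CPM per kb in KO libraries 5 and 6 and between 120 and 170 CPM per kb in the others. Fos held most of the summed level of Fos, Fosb and Fosl2 in every library, between 72.6% and 95.1%. The share of Fosl2 was 24.2% and 26.9% in KO of experiment 1, 4.88% and 4.96% in WT of experiment 2 and between 12.2% and 15.7% in the other 4 libraries. The ratio of the Fos to the Jun family level was 0.138 and 0.145 in KO of experiment 1 and between 0.223 and 0.275 in the other 6 libraries. With 2 libraries against 2, an exact permutation test cannot pass the threshold, so no p is given for these shares.

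**Figure D4:**
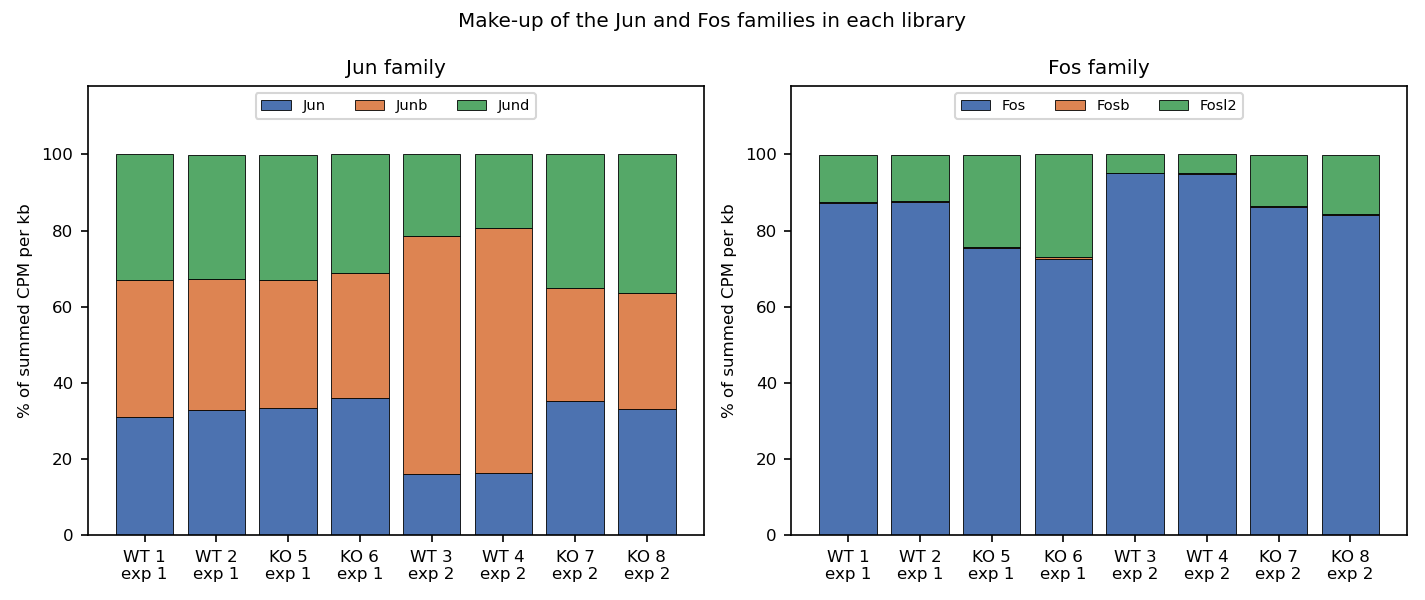
Share of each member in the summed CPM per kb of the Jun family (left) and of the Fos family without Fosl1 (right), 1 bar per library, with the 4 libraries of experiment 1 first. Junb takes 62.5% and 64.4% of the Jun family in WT libraries 3 and 4, and Fosl2 takes 24.2% and 26.9% of the Fos family in KO libraries 5 and 6.

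Some of these genes share their place with a gene on the other strand. Junb overlaps Prdx2, a peroxidase gene, in the annotation (GENCODE M21), and Jun overlaps Junos, an antisense transcript. Jund overlaps the antisense transcript Gm11175, which was not among the genes counted, and Atf3 overlaps Gm24748, which had 0 counts. The library kit keeps strand, but the setting used when counting was not given, so reads of such partners cannot be told apart for certain. Prdx2 had between 150 and 184 CPM, above Junb in all libraries but WT libraries 3 and 4. It had a log2 fold change of -0.29 in experiment 1 (adjusted p = 0.00282 in edgeR) and -0.15 in experiment 2 (adjusted p = 0.370 in edgeR), smaller than those of Junb. Junos had 245 counts in all 8 libraries together, against at least 2882 counts in each library for Jun.

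Other genes of the same pathways were examined by list. The 15 other bZIP factors include partners and competitors of AP-1, and in experiment 1 KO decreased 9 and increased 2 of them (median log2 fold change -0.53), while 2 decreased and 2 increased in experiment 2 (median 0.20). Over all genes tested the shares were 28.1% lower and 27.0% higher in experiment 1 and 8.29% and 7.52% in experiment 2, so the counts of experiment 2 lay near them. Jdp2, a repressor that dimerises with Jun proteins, had 49.2 and 51 CPM in WT and 12.6 and 13.4 CPM in KO of experiment 1, a log2 fold change of -1.96 (adjusted p = 1.21e-06), and -0.55 (adjusted p = 0.300) in experiment 2. Atf4, the main factor of the integrated stress response, followed with -1.73 (adjusted p = 3.22e-06) and 0.39 (adjusted p = 0.219). Bach1, a heme-regulated repressor, had the pattern of Jun and Atf3, with -0.71 (adjusted p = 6.09e-05) and 1.22 (adjusted p = 0.0201). In experiment 2 Maff, a small MAF factor, and Batf2, an interferon-induced partner of Jun proteins, were lower by -2.66 (adjusted p = 0.00655) and -2.97 (adjusted p = 0.0119), after -1.14 (adjusted p = 0.00413) and 0.77 (adjusted p = 0.0025) in experiment 1. Of the 5 partners and competitors of EGR factors listed, 3 could be tested. Nab2, a corepressor of EGR proteins and itself an EGR target, had the directions of Egr2, with 21.3 and 23.5 CPM in WT and 33.2 and 31.9 CPM in KO of experiment 1 and 42.3 and 41.2 CPM in WT and 23.8 and 20.3 CPM in KO of experiment 2. Its log2 fold change was 0.53 (adjusted p = 0.000714) and -0.92 (adjusted p = 0.0155). Nab1, the other corepressor, had -0.79 (adjusted p = 1.90e-05) and -0.19 (adjusted p = 0.382), and Klf9, a factor that binds related GC-rich sites, had 0.17 (adjusted p = 0.364) and 2.27 (adjusted p = 0.0201).

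In experiment 1, 20 of the 28 other immediate early genes tested were lower in KO and 3 were higher (median log2 fold change -0.94). In experiment 2, 5 were lower and 4 higher (median -0.02). The shares of all genes lower and higher were 28.1% and 27.0% in experiment 1 and 8.29% and 7.52% in experiment 2, and 2.25% of all genes were lower in both. Dusp1, a phosphatase that switches off MAP kinases, had 86.6 and 89.0 CPM in WT and 22.6 and 25.2 CPM in KO of experiment 1, a log2 fold change of -1.89 (adjusted p = 1.33e-06), and 0.10 (adjusted p = 0.820) in experiment 2. Plk2, a serum-induced kinase, had -1.33 (adjusted p = 3.36e-06) and 0.24 (adjusted p = 0.468). The 5 genes lower in both experiments, named after their values were seen, were Ier3, Dusp2, Zfp36, Csrnp1 and Gadd45b, which thus had the pattern of Junb. The 4 that were lower in experiment 1 and higher in experiment 2, as were 3.11% of all genes, were Klf4, Rhob, Klf10 and Nr4a1. The last was named after its values were seen. Klf4, a zinc finger factor of myeloid differentiation, had 33.6 and 28.8 CPM in WT and 14.1 and 15.7 CPM in KO of experiment 1, and 3.81 and 4.28 CPM in WT and 28.3 and 36.7 CPM in KO of experiment 2. As for Fosl2, WT of experiment 2 was the group that stood low. Its log2 fold change in experiment 2 was 3.01 (adjusted p = 0.00422), that of Rhob, a small GTPase gene, was 2.20 (adjusted p = 0.00803), and that of Klf10, a TGF-β-induced factor, was 1.03 (adjusted p = 0.0108). Cyr61, a matricellular protein gene that fibroblasts express strongly, rose by 4.88 in experiment 1 (adjusted p = 1.43e-06), from 0.369 and 0.499 CPM in WT to 12.4 and 13.3 CPM in KO libraries 5 and 6, the libraries with the high fibroblast markers, and had -1.46 in experiment 2 (adjusted p = 0.173).

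**Figure D5:**
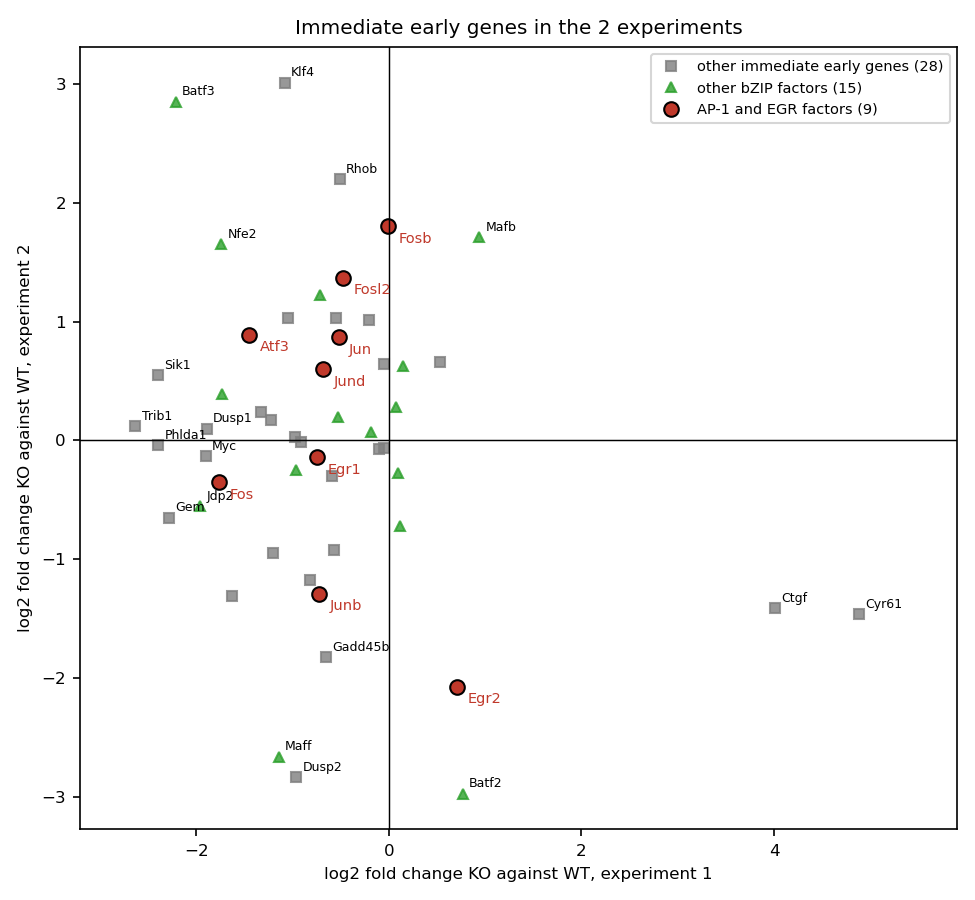
Log2 fold change of KO against WT in experiment 1 (x axis) and experiment 2 (y axis) for the 9 AP-1 and EGR factors tested (red circles), 28 other immediate early genes (grey squares) and 15 other bZIP factors (green triangles). Most points lie left of 0 on the x axis, while on the y axis they spread to both sides, with Junb on the lower left and Egr2 on the lower right.

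Of 17 genes upstream of these factors, 7 were lower and 3 higher in experiment 1, and 2 were lower and 1 higher in experiment 2. The shares over all genes tested were 28.1% lower and 27.0% higher in experiment 1 and 8.29% and 7.52% in experiment 2, so the counts of experiment 2 lay near them. Mkl2, the paralog of Mkl1, rose by 0.58 in experiment 1 (adjusted p = 0.000198) and had 0.49 (adjusted p = 0.0911) in experiment 2. Mapk9, which encodes the kinase JNK2, had a log2 fold change of -0.36 (adjusted p = 0.00139) in experiment 1 and 0.16 (adjusted p = 0.360) in experiment 2. Mapkapk2, a kinase activated by p38, had 813 and 643 CPM in WT and 208 and 203 CPM in KO of experiment 2, a log2 fold change of -1.83 (adjusted p = 0.00727), and -0.19 (adjusted p = 0.0904) in experiment 1. Elk3, an SRF partner, rose by 0.36 in experiment 1 (adjusted p = 0.0041) and by 0.87 in experiment 2 (adjusted p = 0.0246), and Mkl1 itself had -1.17 there (adjusted p = 0.0218) and -0.39 in experiment 1 (adjusted p = 0.00381). Of 14 genes tested among known AP-1 and EGR targets, 7 were lower and 4 higher in experiment 1, and 4 were lower and 1 higher in experiment 2, against the shares over all genes given above. The 4 lower in both, as were 2.25% of all genes, were Tnf, Il6, Cd44 and Plaur, of which the last 2 were named after their values were seen. Tnf, an inflammatory cytokine, had 325 and 295 CPM in WT and 20.3 and 26.7 CPM in KO of experiment 1 and 1410 and 1630 CPM in WT and 128 and 124 CPM in KO of experiment 2. Its changes of -3.73 (adjusted p = 2.19e-05) and -3.59 (adjusted p = 0.00322) on the log2 scale did not differ past the threshold in the interaction test (adjusted p = 0.648). Il6 was low, with 1 count in each KO library of experiment 1, so no fold is given (adjusted p = 0.000104 and 0.0377 in the 2 experiments). Spp1, the osteopontin gene, rose by 2.34 in experiment 1 (adjusted p = 2.84e-06) and had -0.22 in experiment 2 (adjusted p = 0.817). Vegfa, an angiogenic growth factor gene, rose by 0.30 in experiment 1 (adjusted p = 0.00808) and by 0.95 in experiment 2 (adjusted p = 0.0267).

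Heat shock genes, which like AP-1 genes respond to cell stress and handling, were examined beside them. Of 8 tested, 5 were lower in experiment 1, where 28.1% of all genes were (median log2 fold change -0.37, and -0.50 in experiment 2), and the smallest p were those of Hsp90aa1 with -1.17 (adjusted p = 1.98e-05), Hsph1 with -0.43 (adjusted p = 0.00114) and Hspa8 with -0.40 (adjusted p = 0.00231). In experiment 2 edgeR called 0 of the 8, with 1 at an unadjusted p under 0.05, while DESeq2 called 1 and limma-voom 0, each with 5 at an unadjusted p under 0.05. The smallest p in edgeR were those of Dnaja1, Hspa5 and Hspa8 (adjusted p = 0.0578, 0.152 and 0.161). The summed level of the 9 genes was 3850 and 3430 CPM in WT libraries 3 and 4 and between 2190 and 2790 CPM in the others. Most of this sum was Hspa8 and Hspa5, with 1630 and 1700 CPM in WT library 3 and 1580 and 1310 CPM in WT library 4. Hsp90aa1 was not highest there, with 324 and 385 CPM against 417 and 388 CPM in WT libraries 1 and 2. Their part in the values of the AP-1 factors was not tested.

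For each factor tested, the gene with the most similar log2 CPM over the 8 libraries was named by Pearson's r, as a description, since the libraries form only 4 groups. For Junb it was Actr1a, which encodes a dynactin subunit (r = 0.999). For Atf3 it was Dcun1d3 (r = 0.996), for Fos Ell2, a transcription elongation factor (r = 0.992), for Jun Snx1, a sorting nexin (r = 0.988), for Jund Glg1 (r = 0.988) and for Fosl2 Grk6, a receptor kinase (r = 0.982). Cchcr1 was nearest to Egr2 (r = 0.973), S100pbp to Fosb (r = 0.964) and Cd72 to Egr1 (r = 0.941). Only Actr1a was also the nearest gene by Spearman's rho. Among the factors themselves, Fosl2 and Jun had r = 0.943 and Jund and Atf3 had r = 0.903, while Junb and Fosb had r = -0.828 and Fos and Fosl2 had r = -0.115.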

How the data were processed

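RNA-seq measured mRNA in 8 libraries, 4 WT and 4 KO, in 2 experiments. The authors deposited raw counts per gene (whole numbers) and normalized counts, a signal equal to the counts divided by factors between 0.891 and 1.09 set within each experiment. The submitters' processing notes name STAR 2.7.0f, Subread 1.6.4 with featureCounts, DESeq2 1.22.1 and GRCm38. The annotation release and the strand setting of counting are not given in the sources used here. Only the raw counts entered the tests, joined by symbol. Genes passing filterByExpr by genotype (14418) were fitted with edgeR 4.0.16 in R 4.3.3 (TMM, robust quasi-likelihood, Benjamini-Hochberg, threshold 0.05), each experiment alone as the main comparison. The standard error was taken as the size of the log2 value over the square root of F. Log2 CPM used a prior count of 2. Replicate pairs differed by more than counting noise. The chi-square per gene was 15.6 in WT and 12.3 in KO of experiment 1, and 66.0 in WT and 80.1 in KO of experiment 2. On simulated data with 200 changed genes of 14418, the fit recovered 163 in experiment 1 (29 false calls), 166 in experiment 2 (16), 182 with both (11) and 124 for the interaction (14). The simulation gave each gene the same spread in both experiments. These counts therefore cannot show whether changes were harder to detect in experiment 2. Alternatives were DESeq2 1.42.0, limma-voom (limma 3.58.1), upper-quartile scaling, other filters, 1 fit of 4 groups, no experiment term, and leaving out each library. Named were all factors, Mkl1, the 3 genes with the smallest p per list and experiment, and the gene with the highest Pearson r for each factor among genes whose mean log2 CPM was 3 or more. One gene that this rule names is not reported here. The members and lists were chosen with earlier results of these data known. Exon lengths and positions came from GENCODE M21, and promoter windows from RefSeq. Figures used matplotlib 3.10.9.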

Additional observations from a re-analysis of the deposited data

Results flagged for a closer look

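The following genes differed between the experiments in the effect of KO, by the interaction test of edgeR with Benjamini-Hochberg adjustment over all genes tested, of which 41.6% did so. Values are the log2 fold change in experiment 2 less that in experiment 1. Among the AP-1 and EGR factors these were Atf3 (2.32), Fosl2 (1.83), Fosb (1.8), Fos (1.40), Jun (1.39), Jund (1.27), Junb (-0.58) and Egr2 (-2.78). Both experiments had less Junb in KO, and the decrease was larger in experiment 2. Mkl1, the targeted gene, had -0.79.

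Among the other bZIP factors the values were 2.11 for Atf4, 1.92 for Bach1, 1.40 for Jdp2, -1.53 for Maff and -3.76 for Batf2. The EGR corepressors Nab1 and Nab2 had 0.59 and -1.46, and Klf9 had 2.09. Of the other immediate early genes, Klf4 had 4.07, Rhob 2.69, Dusp1 1.98, Klf10 1.58, Plk2 1.55 and Cyr61 -6.35. Of the upstream kinases, Mapk9 had 0.51 and Mapkapk2 -1.65. Of the targets, Vegfa had 0.64 and Spp1 -2.57. Of the heat shock genes, Hsp90aa1 had 0.93, Hsph1 0.40 and Hspa5 -0.63. With 2 libraries a group, no search for single outlying libraries was made.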

How the results depend on the processing

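The number of genes called in experiment 2 was 2279 and became 4899 in 1 fit of all 4 groups and between 232 (without KO library 8) and 1388 (without WT library 4) with 1 library left out; the factors called there fell from 5 to between 1 and 3. Without 1 library the interaction gave 3935 (without WT library 2) to 6508 genes rather than 5996, both experiments together 243 (without WT library 1) to 1100 (without KO library 8) rather than 1027, WT between the experiments 1625 (without WT library 2) to 5295 rather than 4485, and KO between the experiments 1309 (without KO library 5) to 5173 rather than 4722. Both experiments together gave 2492 genes and 2 factors (Junb and Fos) with DESeq2, and 4 genes and 0 factors (2983 genes and 2 factors at an unadjusted p under 0.05) with no experiment term in edgeR. The factors called between the KO groups rose from 3 to 7 with no filter, and they were between 2 and 5 with 1 library left out (5 without KO library 8). Upper-quartile scaling turned the sign of values that did not pass the test, of Fosb to 0.08 in experiment 1 and to -0.05 between the KO groups, and of Jund to 0.04 in both experiments together. Without 1 library the sign of some other values that did not pass turned: Fosb ranged from -0.57 to 0.37 in experiment 1 and from -0.35 to 0.58 between the KO groups, Egr1 from -1.11 to 1.05 in experiment 2, from -0.34 to 1.81 in the interaction and from -1.31 to 0.23 between the KO groups, and in both experiments together Jun ranged from -0.03 to 0.40, Jund from -0.20 to 0.14 and Atf3 from -0.64 to 0.09. Of all alternative values of single factors, 579 kept their direction and side of the threshold, 49 lost the threshold, 15 gained it and 20 turned. The cause was not tested. No paired analysis was possible because the groups share no replicate numbers. At this depth Egr3, Fosb and Egr1 rest on few counts, and a small change of them was not detectable.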
